A study of Mus musculus with 27 samples.

Results

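TGF-beta is a secreted growth factor that cells store outside themselves in a latent form. The 10 genes described here encode its 3 ligands (Tgfb1, Tgfb2 and Tgfb3), its 3 receptors (Tgfbr1, Tgfbr2 and Tgfbr3), 3 latent TGF-beta binding proteins (Ltbp1, Ltbp2 and Ltbp3) and the nuclear repressor SnoN (Skil). They were chosen by symbol with earlier results of these data known, found by Ensembl gene ID, and are 10 of the 53379 genes in the count table. All 10 passed the filter on low counts.

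Bulk RNA-seq was run on hepatic stellate cells (HSCs), which store vitamin A around the liver sinusoids and so fluoresce under ultraviolet light. They were sorted by that fluorescence and lysed without culture. All mice were male Balb/c. Livers were injured with the hepatocyte toxin carbon tetrachloride (CCl4), given intraperitoneally in mineral oil at 0.5 µL per g body mass. The healthy group (n = 4, mice of 10 to 12 weeks) received no injection of any kind, so effects of oil and injection cannot be told apart from those of CCl4. The acute groups (mice of 10 to 12 weeks) received 1 injection. Cells were taken 24 h later in 3 libraries, 72 h later in 4 and 7 d later in 4. The chronic groups (mice of 8 to 10 weeks) received 8 injections over 4 weeks and yielded cells 24 h, 72 h and 14 d after the last of them, with 4 libraries at each time. That age reads as the one at the start of the course, so at sampling these mice were older by the course and the time after it. Their age at sampling may thus differ from that of the healthy and acute mice, and cannot be told apart from the course. The labels do not say whether a library came from 1 mouse, so p-values measure only the spread between libraries. Because these are bulk samples sorted on a fluorescence that stellate cells can lose, fewer cells of a type and less RNA per cell cannot be told apart.

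Each ligand is made as a dimer that stays wrapped in its own cleaved propeptide, and a latent TGF-beta binding protein ties this complex to the matrix until integrins, proteases or thrombospondin release it. Free ligand binds the type II receptor (Tgfbr2), which recruits and phosphorylates the type I receptor (Tgfbr1), and this kinase in turn phosphorylates SMAD2 and SMAD3. In the liver the pathway is best known for turning stellate cells into collagen-producing myofibroblasts. SnoN binds SMAD complexes and holds their target genes down.

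Tgfb2 and Ltbp2 were the member pair whose levels went together most closely (described with the latency proteins). Their promoters are shown for that reason, with that of Tgfb1, whose levels did not follow them, for contrast. Each window runs from 250 bases before to 50 bases after a RefSeq transcription start on GRCm38.p6, 5′ to 3′ on the strand of the gene. It lies at chr1:186705940-186706239 (minus strand) for Tgfb2, chr12:84876442-84876741 (minus strand) for Ltbp2 and chr7:25686752-25687051 (plus strand) for Tgfb1. Capitals mark the SMAD box CAGAC or its reverse complement GTCTG.
Tgfb2: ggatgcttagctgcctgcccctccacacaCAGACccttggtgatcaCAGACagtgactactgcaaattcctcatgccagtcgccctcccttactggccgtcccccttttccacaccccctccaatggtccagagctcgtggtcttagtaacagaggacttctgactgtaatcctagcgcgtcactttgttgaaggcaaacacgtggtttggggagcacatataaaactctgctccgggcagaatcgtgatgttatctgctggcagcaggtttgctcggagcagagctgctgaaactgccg
Ltbp2: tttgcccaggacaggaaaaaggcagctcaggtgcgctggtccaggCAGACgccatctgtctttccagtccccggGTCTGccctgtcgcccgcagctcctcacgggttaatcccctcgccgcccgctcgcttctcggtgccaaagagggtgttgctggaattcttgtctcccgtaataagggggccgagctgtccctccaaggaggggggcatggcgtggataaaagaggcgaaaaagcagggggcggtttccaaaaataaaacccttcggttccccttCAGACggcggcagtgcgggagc
Tgfb1: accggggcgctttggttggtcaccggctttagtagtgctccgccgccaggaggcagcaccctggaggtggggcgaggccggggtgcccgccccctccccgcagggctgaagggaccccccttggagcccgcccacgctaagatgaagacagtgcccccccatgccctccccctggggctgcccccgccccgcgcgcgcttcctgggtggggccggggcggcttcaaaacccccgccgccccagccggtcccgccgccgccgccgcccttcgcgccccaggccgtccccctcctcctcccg
The Tgfb2 window held the box at -221 and -204 from the start, the Ltbp2 window at -205, -176 and 29, and the Tgfb1 window nowhere. Windows were found for 7 of the 10 members, 9 windows in all, since Tgfbr1 and Ltbp1 had 2 starts each. The box was present in 7 of these 9 windows and in at least 1 window of 6 of the 7 members, against 49.6% of all 32851 windows searched, so its presence marks no member out. An AP-1 site (TGANTCA, both strands, 7.81% of all windows) was found only in the Ltbp3 window, where it overlaps a SMAD box, and a cAMP response element (TGACGTCA, 1.79%) only in 1 Ltbp1 window. A TEAD site (GGAATG, 14.7%) was found in 0 of the 9. A match of letters is a description and not a site of binding. No window was found for Tgfb3, Tgfbr3 and Skil.

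Library totals lay between 6.31 M and 13.1 M counts. Totals formed 2 classes, with 8 libraries at 7.58 M or below and 19 at 10.8 M or above. The lower class held all 4 chronic 14 d libraries and, in each of the earlier chronic groups, the first pair of replicates. Chronic 14 d and healthy thus share no depth class and cannot be set side by side at equal depth. A fit with depth class as a term takes the depth effect from chronic 24 h and chronic 72 h alone and carries it over. All 10 stellate cell markers (such as Lrat, Reln and Des) had a mean of at least 1 CPM in every group, and their summed level was 19014 to 32547 CPM in healthy, 14908 to 24206 in acute 24 h, 12097 to 15722 in acute 72 h, 16092 to 19564 in acute 7 d, 12541 to 14992 in chronic 24 h, 19234 to 20679 in chronic 72 h and 17845 to 23536 in chronic 14 d libraries. Markers of other cells were present as well. The summed level of 10 macrophage markers (such as Cd68, Adgre1 and Clec4f) was 154 to 645 CPM in healthy, 151 to 216 in acute 24 h, 302 to 587 in acute 72 h, 4070 to 10655 in acute 7 d, 527 to 3644 in chronic 24 h, 1016 to 2809 in chronic 72 h and 786 to 2061 in chronic 14 d libraries. Macrophages also express Tgfb1, and the part of these cells in any level below was not tested. The summed level of 8 hepatocyte markers ranged from 110 to 6216 CPM, and healthy replicate 4 had 2892 against 462 to 922 in the other healthy libraries. The summed level of 8 sinusoidal endothelial markers was 53.2 to 684 CPM over all libraries. That of 5 platelet markers had a mean of 99.8 CPM in healthy, 96.4 in acute 24 h and 36.8 to 54.3 in the other groups. The mean for 4 cholangiocyte markers was 13.5 CPM in healthy and highest in chronic 72 h, at 83.8. For 5 neutrophil markers it was 0.753 CPM in healthy and highest in chronic 14 d, at 42.7. The part of these cells in any level below was not tested either.

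A gene was called where the adjusted p (edgeR, Benjamini-Hochberg over the 18758 genes tested) was below 0.05. Against healthy HSCs, 5 of 10 members were called in acute 24 h (2 higher, 3 lower), where 33.7% of all genes tested were called (15.5% higher, 18.1% lower). In acute 72 h 4 were called (3 higher, 1 lower), against a background of 21.9% (13.1% higher, 8.81% lower). In acute 7 d 6 were called (5 higher, 1 lower), against 23.7% (13.1% and 10.6%). In chronic 24 h 6 were called (5 higher, 1 lower), against 31% (17.1% and 14%). In chronic 72 h 7 were called (5 higher, 2 lower), against 20% (11% and 9%). In chronic 14 d 4 were called (all higher), against 8.61% (5.12% higher, 3.49% lower). Chronic 24 h against acute 24 h called 7 members (6 higher, 1 lower; background 21.3%, or 14% and 7.32%). Chronic 72 h against acute 72 h called 2 (both higher; background 14.9%, or 7.12% higher and 7.8% lower), which with 10 members is close to the background. Chronic 14 d against chronic 24 h called 4 (all lower; background 23%, or 10.1% higher and 12.9% lower). Acute 7 d against acute 24 h called 6 (5 higher, 1 lower; background 39.9%, or 22.6% and 17.4%). The share of members called was above that of all genes in each of the 11 comparisons, counting the change from 24 h to 72 h below. With the 2-fold minimum given below, it was under that of all genes in acute 24 h against healthy and in chronic 72 h against acute 72 h. The members were chosen with earlier results of these data known, so a higher share may come from that choice. These comparisons share libraries and the difference in shares was not tested. Over all genes the median log2 fold change was -0.12 for acute 24 h against healthy, and within 0.1 of 0 elsewhere. With a 2-fold minimum added to the rule, 1 member was called in acute 24 h against healthy (22% of all genes), 4 in acute 72 h (12.6%), 4 in acute 7 d (14.9%), 4 in chronic 24 h (19.3%), 4 in chronic 72 h (12.1%) and 3 in chronic 14 d (5.72%). It was 4 in chronic 24 h against acute 24 h (13.9%), 3 in chronic 14 d against chronic 24 h (12.8%) and 4 in acute 7 d against acute 24 h (27%). For chronic 72 h against acute 72 h no member was left (9.12%), where the 2 calls of edgeR were 1.996-fold for Tgfb3 and 1.88-fold for Ltbp3. In that comparison 6 members had an unadjusted p below 0.05.

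**Figure D1:**
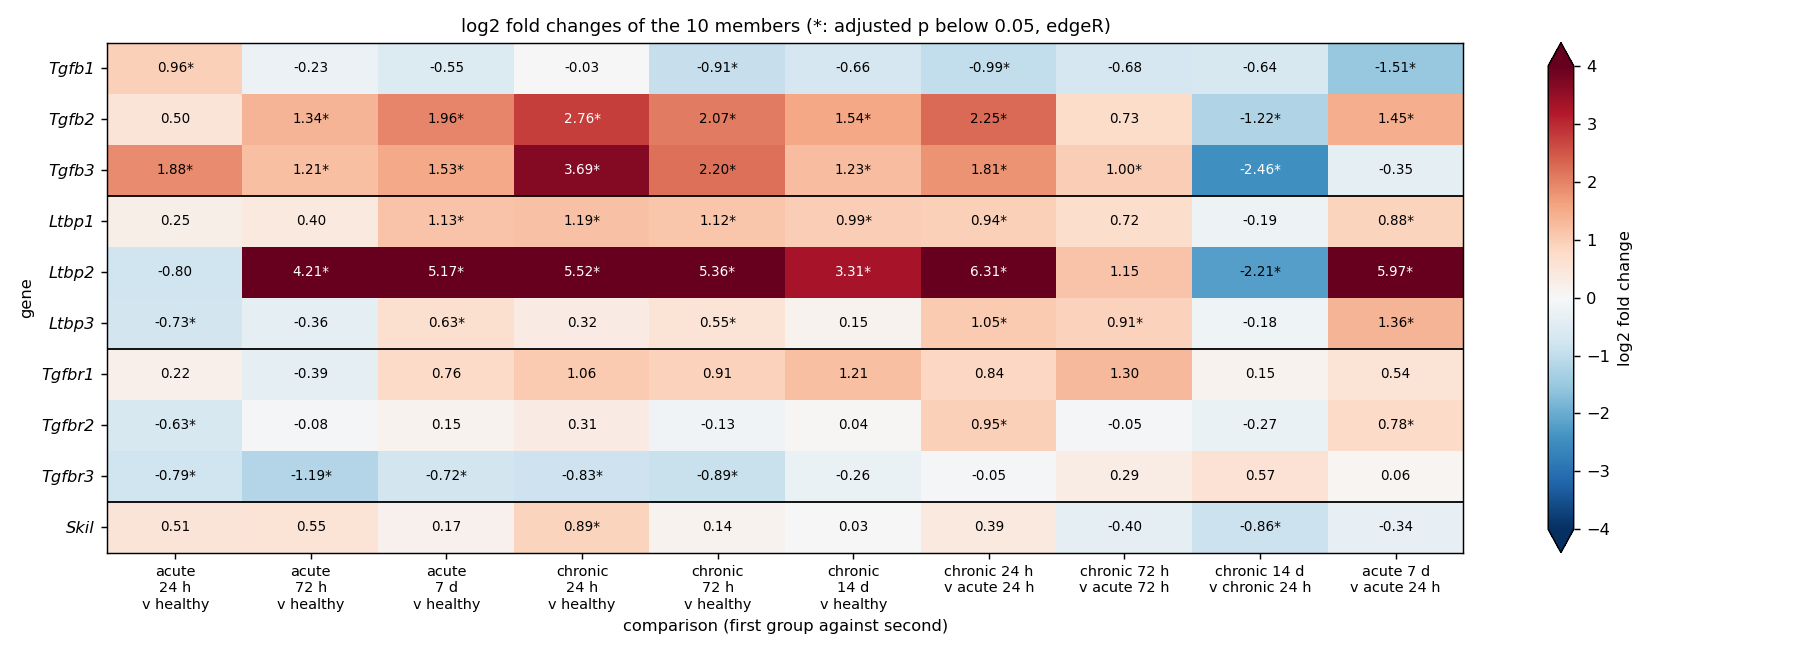
log2 fold change of each member (rows) in 10 comparisons (columns, first group against second), with an asterisk where the edgeR adjusted p was below 0.05. Colours stop at 4 and -4. Ltbp2 spans -2.21 to 6.31, Tgfb3 is above 0 in every column against healthy, Tgfbr3 is at or below -0.26 in all 6 of those columns, and Tgfbr1 carries no asterisk.

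The 3 ligand genes moved differently. Tgfb3 was higher in all 6 injured groups and most of all 24 h after the chronic course. Tgfb2 was higher in 5 of the 6, and Tgfb1 only in acute 24 h.

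Tgfb1 (ENSMUSG00000002603, chr7:25687002-25705077, plus strand) encodes the ligand most studied in fibrosis. Its normalised counts were 133, 176, 224 and 94.6 CPM (counts divided by the TMM-scaled library total in M) in the healthy libraries and 316, 301 and 300 in acute 24 h. All 3 acute 24 h libraries lay above all 4 healthy ones and close to each other. The log2 fold change was 0.96 ± 0.25 (SE), with an adjusted p of 0.00469. Summed macrophage markers in the same acute 24 h libraries (151 to 216 CPM) were within or below the healthy range. The part of macrophages or other cells in the level of Tgfb1 was not tested in any group. The level was 189, 151, 92.3 and 101 CPM in acute 72 h and 77.6, 114, 124 and 114 CPM in acute 7 d, where neither group differed from healthy by the test. Acute 7 d was lower than acute 24 h by -1.51 ± 0.25 on the log2 scale (adjusted p = 5.89e-05), with no overlap. In chronic 24 h the 4 libraries had 151, 176, 135 and 154 CPM. These lay within the healthy range, with a log2 fold change of -0.03 (95% interval -0.51 to 0.46, adjusted p = 0.944), and below every acute 24 h library, with a log2 fold change against that group of -0.99 ± 0.25 (adjusted p = 0.00650). Chronic 72 h libraries had 98.3, 96.1, 65.4 and 74.0 CPM, lower than healthy by -0.91 ± 0.24 (adjusted p = 0.00808), although the highest of them overlapped the lowest healthy library. Chronic 14 d libraries had 119, 110, 82.9 and 83.7 CPM, with a log2 fold change of -0.66 ± 0.24 against healthy that missed the threshold (adjusted p = 0.0836). That value and the one in acute 7 d (-0.55, adjusted p = 0.0973) passed it without healthy replicate 4 (-0.84 with 0.0169, and -0.73 with 0.0221).

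Tgfb2 (ENSMUSG00000039239, chr1:186622792-186705989, minus strand) encodes the ligand that relies on betaglycan to reach the type II receptor. It was the least abundant ligand. Healthy libraries had 5.80, 6.73, 7.84 and 2.60 CPM, from 30 to 93 counts each, and acute 24 h libraries had 8.01, 8.33 and 8.08. The acute 24 h values lay just above the healthy ones without passing the test (log2 fold change 0.50 ± 0.31, adjusted p = 0.229). Levels were 9.83, 11.5, 18.5 and 18.4 CPM in acute 72 h and 19.7, 20.4, 24.1 and 25.1 in acute 7 d, all above healthy. The log2 fold changes were 1.34 ± 0.29 (adjusted p = 0.00177) and 1.96 ± 0.30 (3.93e-05). In chronic 24 h the libraries had 21.7, 35.0, 48.5 and 50.1 CPM. This was the highest group mean of the gene, 2.76 ± 0.30 on the log2 scale above healthy (adjusted p = 3.18e-07) and 2.25 ± 0.33 above acute 24 h (3.36e-05). Chronic 72 h libraries had 23.7, 16.0, 26.2 and 30.6 CPM and chronic 14 d libraries 13.0, 17.4, 19.6 and 16.9. Both groups were still wholly above healthy, by 2.07 ± 0.30 (adjusted p = 2.52e-05) and 1.54 ± 0.29 (0.00168). Chronic 14 d was lower than chronic 24 h by -1.22 ± 0.29 (adjusted p = 0.00334). Among libraries of lower depth alone, with 2 left in chronic 24 h, that difference was -0.71 (adjusted p = 0.130).

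Tgfb3 (ENSMUSG00000021253, chr12:86056745-86079041, minus strand) encodes the third ligand. Healthy libraries had 27.1, 38.1, 45.7 and 38.0 CPM and acute 24 h libraries 155, 86.2 and 170. Levels were 77.5, 114, 70.6 and 81.5 CPM in acute 72 h and 81.8, 98.3, 136 and 114 in acute 7 d. Every acute library lay above every healthy one, and the 3 acute groups overlapped each other. The log2 fold changes against healthy were 1.88 ± 0.28 (adjusted p = 2.05e-05), 1.21 ± 0.27 (0.00200) and 1.53 ± 0.27 (0.000217). In chronic 24 h the libraries had 300, 386, 587 and 643 CPM, above all other 23 libraries. The mean of 479 ± 163 (SD, n = 4) against 37.2 ± 7.64 in healthy gave a log2 fold change of 3.69 ± 0.29 (adjusted p = 3.02e-09), or 12.9-fold. It exceeded acute 24 h by 1.81 ± 0.30 (adjusted p = 0.000125). The level then fell, to 156, 113, 250 and 167 CPM in chronic 72 h and 83.5, 84.7, 105 and 76.2 CPM in chronic 14 d, which were lower than chronic 24 h by -2.46 ± 0.28 (adjusted p = 1.34e-06). Both groups stayed above healthy, by 2.20 ± 0.27 (4.48e-06) and 1.23 ± 0.27 (0.00467). Chronic 72 h was above acute 72 h by 1.00 ± 0.26 (adjusted p = 0.0123) with 1 library of each group in reverse order (113 against 114 CPM). Exons of Tgfb3 share 163 and 257 bases with 2 transcripts of the opposite strand, Gm37804 and Gm48008, which had 501 and 0 counts over all libraries.

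**Figure D2:**
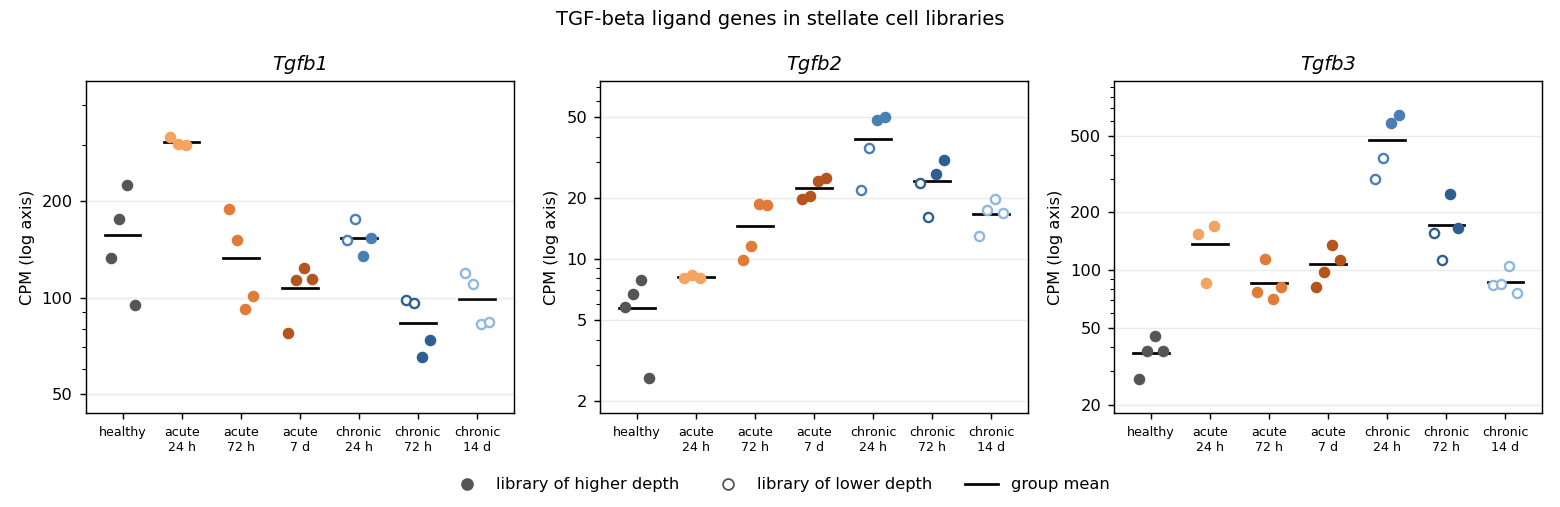
CPM (log axis, TMM-scaled) of the ligand genes in each library, by group, with bars at group means and open points for the 8 libraries of lower depth. Tgfb1 peaks in acute 24 h (300 to 316), and Tgfb2 and Tgfb3 in chronic 24 h (21.7 to 50.1 and 300 to 643).

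In chronic 24 h the 2 libraries of lower depth had less Tgfb2 and Tgfb3 than the 2 of higher depth (21.7 and 35.0 against 48.5 and 50.1 CPM, 300 and 386 against 587 and 643). The same 2 libraries had the higher macrophage marker sums (2543 and 3644 against 527 and 1137 CPM), and the part of depth and of macrophages in this spread was not tested. With only libraries of higher depth, the log2 fold changes of chronic 24 h against healthy were larger, 3.12 for Tgfb2 and 4.06 for Tgfb3. With depth class as a term, those of chronic 14 d against healthy were also larger, 2.20 for Tgfb2, 1.97 for Tgfb3 and 4.25 for Ltbp2, and all 3 calls were kept. The depth effect in that fit comes only from chronic 24 h and chronic 72 h, so these values are no comparison at equal depth. In the same fit the falls of these genes from chronic 24 h to chronic 14 d were smaller than without the term. The log2 fold changes were -0.84 for Tgfb2, -2.03 for Tgfb3 and -1.64 for Ltbp2, and all 3 were still called.

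Per length, Tgfb1 and Tgfb3 changed places, and Tgfb2 was the lowest of the 3 ligands in both groups compared. Levels per length are given as RPKM, CPM divided by the gene's exon length in kb. In healthy HSCs Tgfb1 had 31.1 ± 11.1 RPKM (SD, n = 4), Tgfb3 11.01 ± 2.26 and Tgfb2 0.991 ± 0.389. In chronic 24 h Tgfb3 had 142 ± 48.1, Tgfb1 30.5 ± 3.37 and Tgfb2 6.71 ± 2.29. Tgfb3 was below Tgfb1 per length in every healthy library and above it in every chronic 24 h library. Its share of the ligand RNA per exon base was 22.7%, 23.8%, 22.8% and 36.9% in the healthy libraries and 41.7%, 29.4% and 45.1% in acute 24 h. It was 36.9% to 51.3% in acute 72 h, 52.7% to 58.2% in acute 7 d, 72.5% to 83.2% in chronic 24 h, 60.6% to 80.8% in chronic 72 h and 48.8% to 61.0% in chronic 14 d. Healthy replicate 4 reached into the range of acute 24 h and was level with the lowest acute 72 h library, and the other 3 healthy libraries lay below all 23 injured ones. These shares were chosen for description after levels were seen, and no test between groups is given for them. They depend on the length used, since the exons of Tgfb1 cover 5042 bases and its longest principal transcript 2175. With principal transcripts the mean Tgfb3 share was 13.8% in healthy and 63.1% in chronic 24 h, and it exceeded that of Tgfb1 only in chronic 24 h and chronic 72 h.

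**Figure D3:**
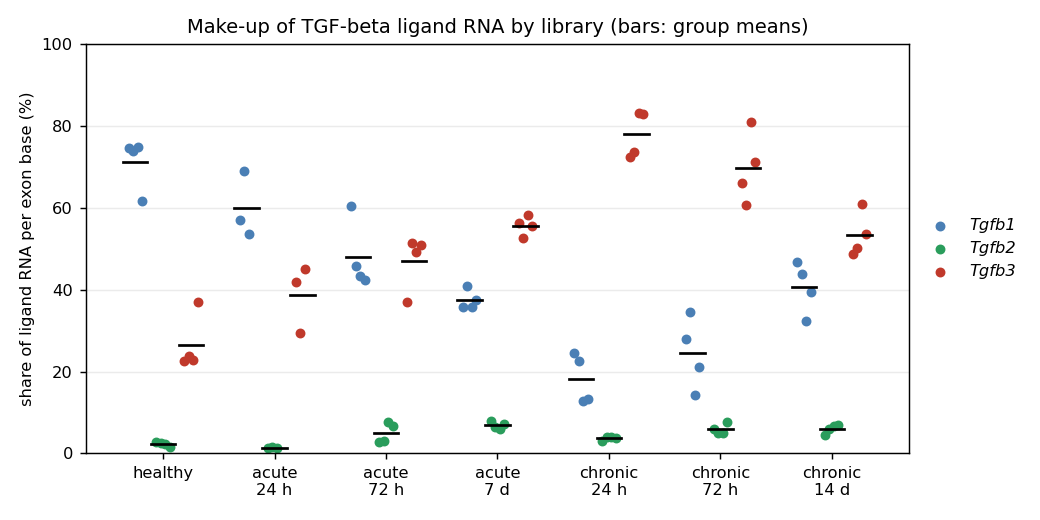
Share (%) of each ligand gene in the summed ligand RNA per exon base, by group, 1 point per library and ligand, with bars at group means. The Tgfb1 mean is 71.2% in healthy and 18.3% in chronic 24 h, and the Tgfb3 mean 26.5% and 78.0%.

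The 3 genes whose log2 CPM followed each ligand most closely over the 27 libraries were named by Pearson's r among all genes tested. These were Arhgdia, Fam219a and Gm7935 for Tgfb1 (r = 0.92 each), Rasl12, Svep1 and Angpt2 for Tgfb2 (r = 0.92, 0.91 and 0.91) and Thbs1, Tnc and Plat for Tgfb3 (r = 0.92, 0.91 and 0.91). The values describe these libraries, which share groups and depth, and carry no test. Thbs1, whose product can release latent TGF-beta, is also in the pathway list below.

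Among the latent TGF-beta binding proteins, Ltbp2 showed the largest change of any member. The largest changes of Ltbp1 and Ltbp3 were smaller than those of Tgfb2 and Tgfb3. Ltbp2 (ENSMUSG00000002020, chr12:84783212-84876532, minus strand) encodes the member of the family that, unlike LTBP1 and LTBP3, does not carry latent TGF-beta and is known from elastic fibres. It was nearly silent in healthy HSCs, at 2.90, 7.02, 9.94 and 4.68 CPM, and in acute 24 h, at 5.96, 1.65 and 2.98. The groups overlapped and did not differ by the test (log2 fold change -0.80, 95% interval -1.89 to 0.29, adjusted p = 0.263). In acute 72 h the libraries had 73.4, 47.9, 159 and 175 CPM and in acute 7 d 226, 271, 221 and 167. No library of either group overlapped healthy, and the log2 fold changes were 4.21 ± 0.51 (adjusted p = 3.71e-06) and 5.17 ± 0.53 (4.95e-07). Acute 7 d exceeded acute 24 h by 5.97 ± 0.63 (adjusted p = 2.34e-07). After the chronic course it was already high at 24 h, with 180, 185, 363 and 398 CPM, where the 2 lower values were those of lower depth. Against healthy the log2 fold change was 5.52 ± 0.54 (adjusted p = 7.53e-08), and against acute 24 h it was 6.31 ± 0.64 (3.84e-07), or 79.5-fold. Chronic 72 h libraries had 214, 150, 405 and 238 CPM, 5.36 ± 0.54 above healthy (adjusted p = 3.42e-07). Chronic 14 d libraries had 52.5, 60.5, 98.6 and 31.7 CPM. They were lower than chronic 24 h by -2.21 ± 0.46 (adjusted p = 0.00132) but still 3.31 ± 0.49 above healthy (0.000169), with no overlap either way. The antisense gene D030025P21Rik covers 764 exon bases of Ltbp2 and had 796 counts over all libraries, against 19 to 5202 counts of Ltbp2 in a single library, fewest in acute 24 h. Tgfb2 and Ltbp2 had a Pearson's r of 0.87 over the 27 libraries, which share groups and depth, the highest of the 45 pairs of members. The summed level of 6 mesothelial and portal fibroblast markers had a higher mean than healthy in each group where Ltbp2 did. The means of both rose from acute 24 h to acute 7 d. That of Ltbp2 went from 3.53 to 221 CPM and that of the sum from 15.5 to 84.3. From chronic 24 h to chronic 14 d the mean of Ltbp2 went from 281 to 60.9 CPM and that of the sum from 92.2 to 78.7. By library the sum was 18.4 to 26.7 CPM in healthy and 12.2 to 19.2 in acute 24 h. It was then 26.4 to 40.8 in acute 72 h and 64.0 to 102 in acute 7 d. After the chronic course it was 66.4 to 128 at 24 h, 126 to 175 at 72 h and 63.9 to 103 at 14 d. Most of the rise was in Wt1, a marker of this list (group means from 4.11 in healthy to 101 CPM in chronic 72 h). Of the 6 markers, 5 had a mean of at least 1 CPM in acute 7 d and in each chronic group. Msln was at 0.789 CPM or below in every group mean. The part of such cells in the levels of Ltbp2 and Ltbp1 was not tested.

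Ltbp1 (ENSMUSG00000001870, chr17:75005568-75392512, plus strand) ties latent TGF-beta to fibrillin and fibronectin in the matrix. Healthy libraries had 67.4, 92.7, 88.5 and 87.7 CPM. Acute 24 h (126, 65.1 and 109) and acute 72 h (76.5, 57.0, 160 and 150) straddled them and were not called. Acute 7 d libraries had 173, 217, 170 and 176 CPM, chronic 24 h 236, 162, 195 and 173, chronic 72 h 185, 180, 259 and 106, and chronic 14 d 140, 126, 213 and 190. All 16 of these libraries lay above the healthy ones, with log2 fold changes of 1.13 ± 0.29 (adjusted p = 0.00630), 1.19 ± 0.29 (0.00297), 1.12 ± 0.29 (0.00765) and 0.99 ± 0.29 (0.0332). The call in chronic 14 d was lost without any one of healthy replicates 1, 2 and 3 or chronic 14 d replicates 3 and 4 (adjusted p from 0.0549 to 0.0975, log2 fold change from 0.90 to 1.04). Chronic 24 h and acute 7 d were above acute 24 h by 0.94 ± 0.32 (adjusted p = 0.0353) and 0.88 ± 0.31 (0.0290). Both calls were lost without acute 24 h replicate 2, the library with 65.1 CPM (0.71 with an adjusted p of 0.192, and 0.65 with 0.158). They were also lost without acute 24 h replicate 3, and the first without chronic 24 h replicate 1, 3 or 4, the second without acute 7 d replicate 2 (adjusted p from 0.0529 to 0.0861). The chronic 24 h call was also lost with no filter (0.0686), depth class as a term (0.0707) and higher-depth libraries alone (0.167), and the acute 7 d call with higher-depth libraries alone (0.0552).

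Ltbp3 (ENSMUSG00000024940, chr19:5740904-5758532, plus strand) also carries latent ligand, with a known role in bone. It was 102, 143, 136 and 86.9 CPM in healthy, 79.1, 67.2 and 65.0 in acute 24 h, 99.7, 65.7, 91.9 and 107 in acute 72 h and 183, 181, 203 and 158 in acute 7 d. Acute 24 h lay wholly below healthy and acute 7 d wholly above, at -0.73 ± 0.20 (adjusted p = 0.00699) and 0.63 ± 0.19 (0.0153). The rise from acute 24 h to acute 7 d was 1.36 ± 0.21 (adjusted p = 1.84e-05). Chronic 24 h libraries had 173, 132, 128 and 150 CPM, chronic 72 h 202, 160, 196 and 127, and chronic 14 d 151, 116, 150 and 102. Chronic 24 h exceeded acute 24 h by 1.05 ± 0.21 (adjusted p = 0.000680) and chronic 72 h exceeded acute 72 h by 0.91 ± 0.19 (0.00163), in both cases without overlap. Chronic 72 h passed the test against healthy at 0.55 ± 0.19 (adjusted p = 0.0377), but not without healthy replicate 1 or 4 or chronic 72 h replicate 1 or 3 (0.43 to 0.52, adjusted p from 0.0697 to 0.109). It was also lost with no filter, depth class as a term, only the groups compared and higher-depth libraries alone (0.47 to 0.58, adjusted p = 0.0522, 0.114, 0.129 and 0.145). The acute 7 d value missed the threshold by a hair without healthy replicate 1 (0.57, adjusted p = 0.0505).

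**Figure D4:**
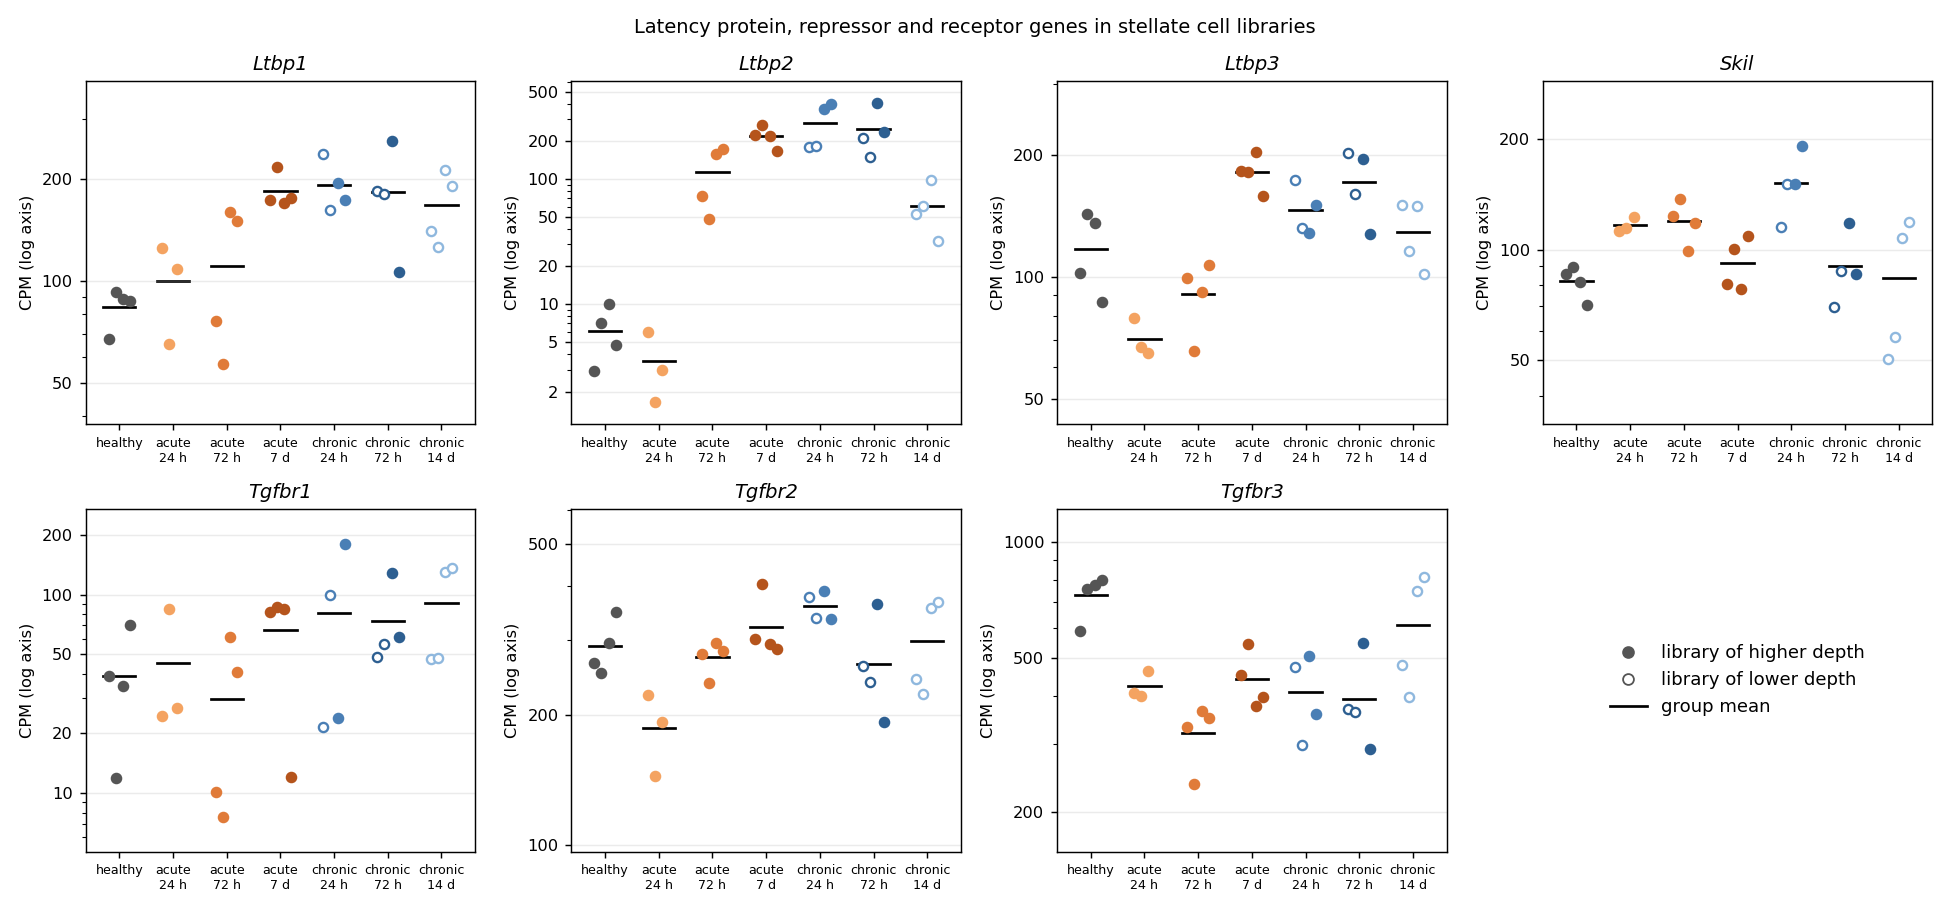
CPM (log axes, TMM-scaled) of the latency protein, repressor and receptor genes in each library, by group, with bars at group means and open points for libraries of lower depth. Ltbp2 runs from 1.65 to 405, and Tgfbr1 is spread from 7.62 to 180 with wide scatter inside groups.

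Among the receptors, Tgfbr3 was lower in 5 of the 6 injured groups, Tgfbr2 differed only in acute 24 h, and Tgfbr1 was called in none of the 11 comparisons. Tgfbr3 (ENSMUSG00000029287, chr5:107106570-107289629, minus strand) encodes betaglycan, the co-receptor that presents ligand to the type II receptor. Per length it was the most abundant member in healthy HSCs, at 111 ± 14.5 RPKM (SD, n = 4), with 590, 755, 775 and 799 CPM in the 4 libraries. Levels were 407, 398 and 463 CPM in acute 24 h, 332, 236, 365 and 350 in acute 72 h and 451, 544, 376 and 396 in acute 7 d. Chronic 24 h libraries had 475, 298, 506 and 358 CPM and chronic 72 h libraries 370, 364, 547 and 291. All 19 of these libraries lay below all 4 healthy ones. Summed stellate markers were also lower in mean in these groups than in healthy, and their part in the level of Tgfbr3 was not tested. The log2 fold changes were -0.79 ± 0.25 (adjusted p = 0.0165), -1.19 ± 0.23 (0.000593), -0.72 ± 0.23 (0.0224), -0.83 ± 0.23 (0.00687) and -0.89 ± 0.23 (0.00685), in the order given. The acute 24 h call was lost without acute 24 h replicate 1 or 2 (-0.76 and -0.74, adjusted p = 0.0599 and 0.0634). The acute 7 d call was lost without healthy replicate 3 or acute 7 d replicate 3 or 4 (-0.69, -0.65 and -0.67, adjusted p = 0.0512, 0.0710 and 0.0585). Chronic 14 d libraries had 480, 397, 745 and 814 CPM, with 2 inside or above the healthy range and 2 below it (log2 fold change -0.26, 95% interval -0.73 to 0.20, adjusted p = 0.536). The transcript Gm43422 shares 297 exon bases on the same strand and had 2357 counts over all libraries.

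Tgfbr2 (ENSMUSG00000032440, chr9:116084293-116175360, minus strand) encodes the receptor kinase that binds ligand first. Healthy libraries had 264, 251, 294 and 348 CPM and acute 24 h libraries 223, 145 and 193, all below healthy. The log2 fold change of -0.63 ± 0.21 (adjusted p = 0.0218) missed the threshold without acute 24 h replicate 2 (-0.48, adjusted p = 0.139) or healthy replicate 4 (-0.53, 0.0658). Acute 72 h libraries had 278, 238, 294 and 283 CPM and acute 7 d libraries 301, 403, 294 and 286. Chronic 24 h libraries had 377, 337, 390 and 336 CPM, and were above acute 24 h by 0.95 ± 0.21 (adjusted p = 0.00230), as was acute 7 d by 0.78 ± 0.21 (0.00467). Chronic 72 h libraries had 261, 239, 363 and 193 CPM and chronic 14 d libraries 243, 224, 355 and 367. Against healthy the log2 fold changes of the 5 groups other than acute 24 h ran from -0.13 to 0.31, and none passed the test.

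Tgfbr1 (ENSMUSG00000007613, chr4:47353222-47414931, plus strand) encodes the type I kinase that phosphorylates SMADs. Its counts scattered far more within groups than those of the other members. Healthy libraries had 39.1, 12.0, 34.7 and 70.3 CPM, acute 24 h 24.5, 84.9 and 26.8, acute 72 h 10.1, 7.62, 61.0 and 40.6, and acute 7 d 82.0, 86.3, 84.3 and 12.1. Chronic 24 h libraries had 21.4, 99.1, 23.9 and 180 CPM, chronic 72 h 48.5, 56.1, 128 and 61.0, and chronic 14 d 47.3, 47.8, 129 and 136. Every pair of groups compared overlapped. The log2 fold changes against healthy ran from -0.39 to 1.21 with standard errors of 0.75 to 0.80, and the 95% interval in chronic 24 h was -0.50 to 2.61, so changes of several fold could not be told from none. No other gene of the GENCODE M21 annotation overlaps it.

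Skil (ENSMUSG00000027660, chr3:31095058-31122577, plus strand) encodes SnoN, the repressor that SMAD signalling degrades and then induces again. Healthy libraries had 85.8, 89.7, 81.6 and 70.4 CPM and chronic 24 h libraries 115, 151, 151 and 192, all higher. The log2 fold change was 0.89 ± 0.22 (adjusted p = 0.00358). Acute 24 h (112, 114 and 122 CPM) and acute 72 h (124, 137, 99.0 and 118) also lay wholly above healthy but missed the threshold (0.51 ± 0.24 with an adjusted p of 0.107, and 0.55 ± 0.22 with 0.0815). Acute 7 d libraries had 80.4, 100, 78.2 and 109 CPM, chronic 72 h 69.7, 87.4, 118 and 86.0, and chronic 14 d 50.2, 57.8, 108 and 119, each overlapping healthy. Chronic 14 d was lower than chronic 24 h by -0.86 ± 0.22 (adjusted p = 0.00695). That call was not kept among lower-depth libraries alone (-0.60, adjusted p = 0.319) or with depth class as a term (-0.67, 0.0554).

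The change from 24 h to 72 h was set side by side for a first and a repeated injury, as the difference of the 2 changes in the same model. It was called for 3 of 10 members, all lower after the chronic course, against 10.8% of all genes tested (3.2% higher, 7.64% lower), and for 2 of them, Ltbp2 and Tgfb2, with a 2-fold minimum (8.74% of all genes). Ltbp2 rose after 1 injection, from a mean of 3.53 to 114 CPM, and went from 281 to 252 CPM after the chronic course. The difference in log2 change was -5.17 ± 0.72 (adjusted p = 6.29e-05). Tgfb2 went from 8.14 to 14.6 CPM after 1 injection and from 38.8 to 24.1 CPM after the course, a difference of -1.53 ± 0.42 (adjusted p = 0.0206). Tgfbr2 went from 187 to 273 CPM and from 360 to 264 CPM, a difference of -0.99 ± 0.28 (adjusted p = 0.0239). The calls of Tgfb2 and Tgfbr2 were lost without any one of acute 24 h replicate 2, acute 72 h replicates 3 and 4, chronic 24 h replicate 4 and chronic 72 h replicate 2, where the differences were -1.27 to -1.54 and -0.84 to -0.92 (adjusted p from 0.0505 to 0.0951). Tgfb1 fell in mean in both series, from 306 to 133 and from 154 to 83.4 CPM, with a difference of 0.31 (95% interval -0.40 to 1.03, adjusted p = 0.648). Tgfb3 went from 137 to 85.9 and from 479 to 171 CPM, and its difference of -0.81 (95% interval -1.61 to -0.01) had an adjusted p of 0.195.

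Of the 40 other genes of the pathway counted here, 39 passed the filter on low counts and Itgb6 did not. Against healthy, 21 were called in acute 24 h (11 higher, 10 lower), where 33.7% of all genes tested were called. In acute 72 h 12 were called (7 and 5, against 21.9%) and in acute 7 d 16 (10 and 6, 23.7%). In chronic 24 h 23 were called (15 and 8, against 31%). In chronic 72 h 15 were called (8 and 7, against 20%) and in chronic 14 d 8 (5 and 3, 8.61%). The median log2 fold change of the list was 0.61 in chronic 24 h and between -0.18 and 0.06 in the other 5. Chronic 14 d against chronic 24 h called 18 of the 39, 14 lower and 4 higher, against 23% of all genes (12.9% lower, 10.1% higher).

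Latency and activation genes (10 tested) included Thbs1, which was higher in all 6 injured groups. Its mean was 98.1 ± 30.4 CPM (SD, n = 4) in healthy and 5691 ± 1381 in chronic 24 h, a log2 fold change of 5.86 ± 0.38 (adjusted p = 1.53e-10). The annotated antisense gene Gm29233 lies within Thbs1, and their reads cannot be told apart without strand. Ltbp4, the remaining latent TGF-beta binding protein, known from elastic fibres, went the other way from Ltbp2. Its mean was 1768 ± 345 CPM in healthy and 405 ± 34.8 in acute 72 h, the lowest group (-2.12 ± 0.24, adjusted p = 1.18e-06), and it was lower in every injured group but chronic 14 d (-0.63, 0.0897). Lrrc32, which encodes GARP, a cell surface anchor of latent TGF-beta, was higher in acute 24 h (1.45 ± 0.55, adjusted p = 0.0447) and chronic 24 h (1.63 ± 0.52, 0.0205), where healthy libraries spanned 23.3 to 824 CPM. Among integrin subunits Itgb5 was lower in acute 24 h (-0.79) and higher in acute 7 d, chronic 24 h and chronic 72 h (0.66 to 0.92), Itgb8 was higher in acute 24 h alone (1.40). The 4 genes of this list that were called in no injured group against healthy, named after their values were seen, were Fbn1, Furin, Itgav and Nrros.

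Co-receptors and receptor regulators (7 tested) held Acvrl1, which encodes the type I receptor ALK1. It was lower in acute 24 h (-1.23) and higher in acute 7 d, chronic 24 h, chronic 72 h and chronic 14 d (1.73 to 2.01), at group means of 2.46 to 23.4 CPM. Bambi, a decoy receptor, was lower in acute 24 h and chronic 24 h (-1.0 and -1.05). Zfyve9, a SMAD anchor, was lower in acute 24 h, acute 72 h, acute 7 d and chronic 72 h (-1.07 to -0.68). Among SMADs and their regulators (9 tested), the signal carriers Smad2, Smad3 and Smad4 were called in no injured group against healthy (log2 fold changes from -0.63 to 0.30). The inhibitory Smad7, a target of the pathway, was higher in acute 24 h, acute 72 h and chronic 24 h (0.89, 0.65 and 0.86). The repressor Ski, a relative of Skil, was lower in acute 24 h, acute 72 h, chronic 24 h and chronic 72 h (-0.93 to -0.53), and its direction was thus opposite to that of Skil in chronic 24 h. The co-repressors Tgif1 and Tgif2 were called in opposite directions in all 6 injured groups, Tgif1 at 0.80 to 2.27 and Tgif2 at -0.74 to -0.46.

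Of the 4 matrix proteins that bind the ligand, Fmod was lower in acute 24 h (-2.40 ± 0.58) and higher in acute 7 d (3.13 ± 0.53), chronic 24 h, chronic 72 h and chronic 14 d (1.65 to 2.80). Dcn, also among the stellate markers, was lower in acute 72 h and chronic 24 h (-1.23 and -1.07), Bgn was lower in chronic 24 h and chronic 14 d (-0.64 and -0.66), and Aspn was not called against healthy. Of 9 genes known as targets of the pathway, 6 were called in acute 24 h (5 higher, 1 lower, against 33.7% of all genes), 4 in acute 72 h (all higher, 21.9%), 7 in acute 7 d (5 higher, 2 lower, 23.7%), 8 in chronic 24 h (6 higher, 2 lower, 31%), 4 in chronic 72 h (3 higher, 1 lower, 20%) and 1 in chronic 14 d (higher, 8.61%), the last a share near that of all genes. Acta2, the smooth muscle actin of myofibroblasts, had a mean of 3.13 ± 2.69 CPM in healthy and 1545 ± 1062 in chronic 24 h (log2 fold change 8.94 ± 0.97, adjusted p = 3.28e-07). Col1a1 was higher in all 6 groups, from 1.29 in acute 24 h to 5.34 in acute 7 d. Ccn2 was higher in acute 24 h (3.70) and chronic 24 h (3.23). Tgfbi, named for its induction by the ligand, was lower in acute 24 h, acute 7 d, chronic 24 h and chronic 72 h (-1.95 to -0.87). Snai1 was higher in acute 24 h alone (0.64), Junb was lower in acute 7 d and chronic 24 h (-0.82 and -0.71), and the targets did not move in 1 direction.

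**Figure D5:**
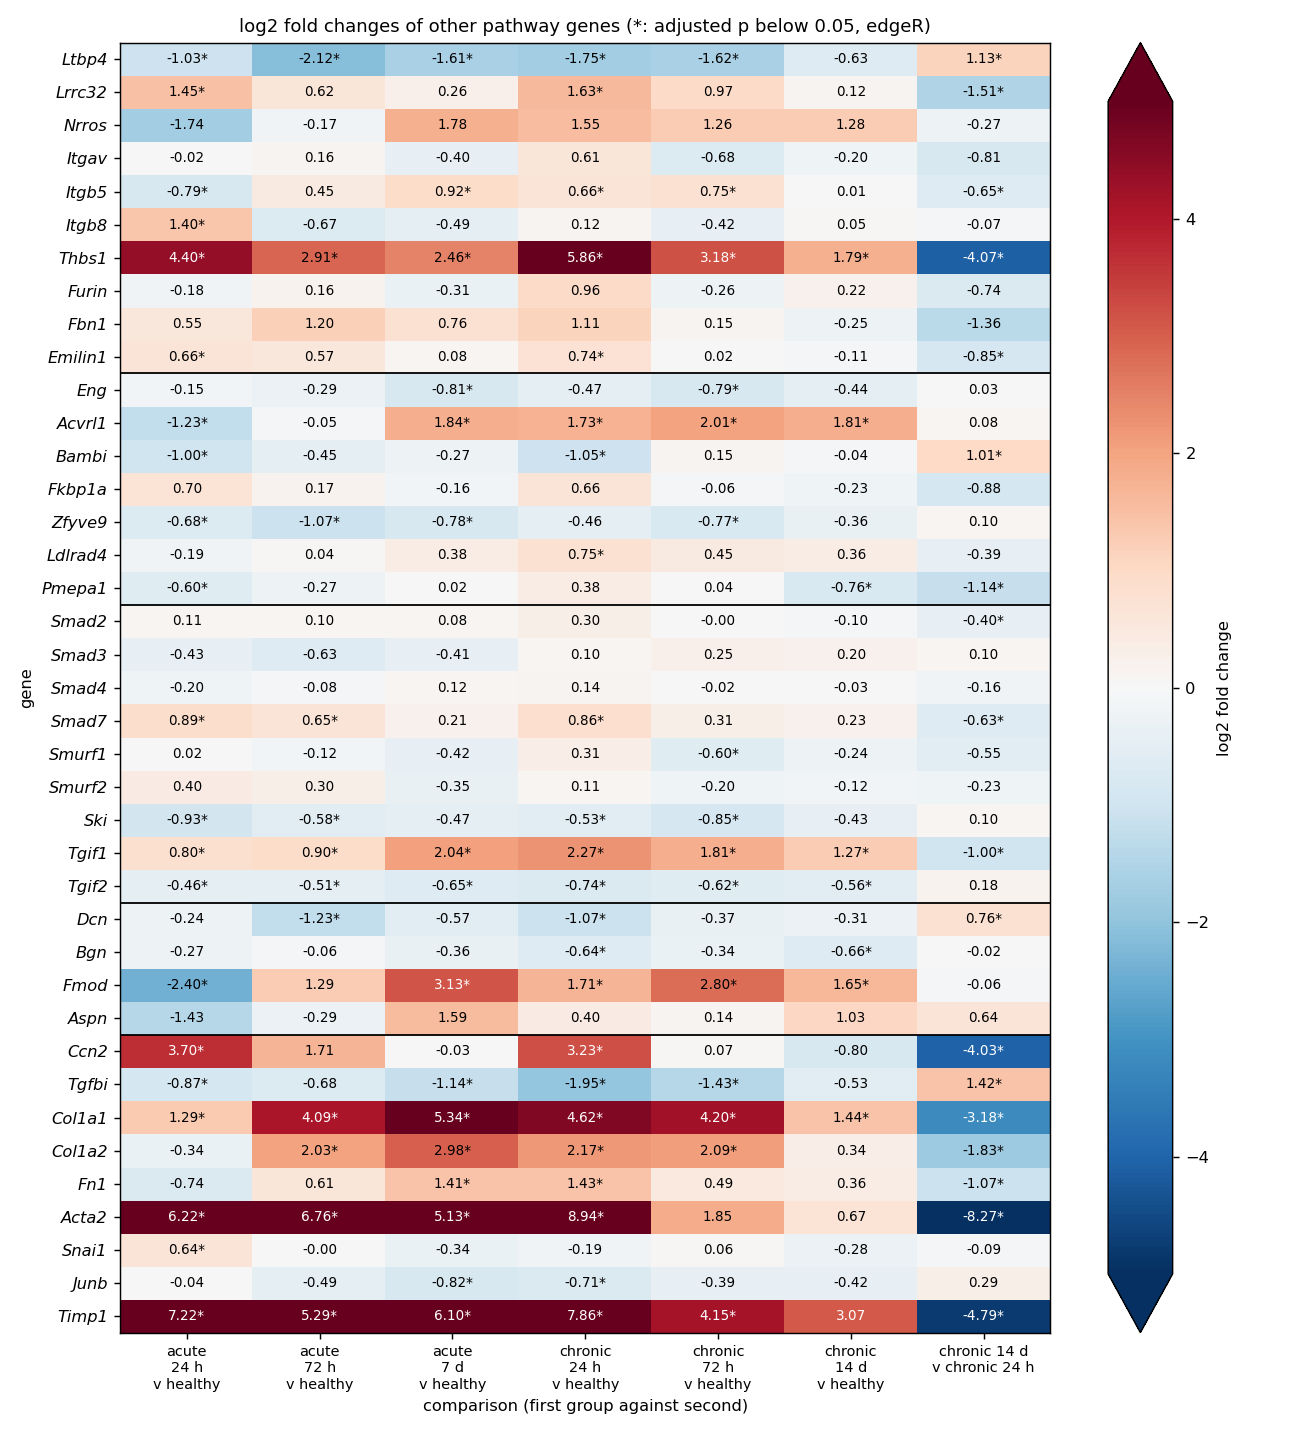
log2 fold change of the 39 other pathway genes tested (rows, in 5 lists divided by lines) in 6 comparisons against healthy and in chronic 14 d against chronic 24 h (columns), with an asterisk where the edgeR adjusted p was below 0.05. Thbs1, Acta2, Col1a1 and Timp1 are above 0 in all 6 columns against healthy, Ltbp4 and Tgif2 below 0 in all 6.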

How the data were processed

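Single-end reads of 75 bases from mouse HSCs were, per the study's methods, checked with FastQC, aligned with STAR to GRCm38.p6 and passed through StringTie. Versions, the annotation release, the strand used and the step that made the table are not given in the sources used here. The deposited table holds raw counts per Ensembl gene, which the authors left unnormalised, for 53379 genes, of which 16198 had no count. Every value column belonged to a labelled sample. GENCODE M21 (GRCm38) paired 53274 IDs with symbols and gave exon lengths, so gene levels per length rest on an annotation that may differ from the authors'. Where paralogs or overlapping genes share reads, the counting rule could split them.

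From the counts, library sizes were scaled by TMM and 18758 genes were kept by filterByExpr (minimum count 10, minimum total 15). A quasi-likelihood F test was fitted in edgeR 4.0.16 (R 4.3.3) with 1 mean for each of the 7 groups over all 27 libraries, and Benjamini-Hochberg adjusted p below 0.05 was called. Spread was thus shared by groups, with 20 residual degrees of freedom. SE is the log2 fold change over the root of F, and intervals are 95%. Log2 CPM used a prior count of 2. The fit was first tested on simulated counts. Alternatives were DESeq2 1.42.0, other size factors, no filter, only the groups compared, a 2-fold minimum, depth class, blocking on the replicate number, and dropping libraries 1 at a time. Depth was 6.31 M to 13.1 M counts per library, so genes of few counts, such as Tgfb2 and Ltbp2 in healthy HSCs, are the least precise, and identical reads could not be told from copies of 1 molecule. Promoters came from RefSeq (GRCm38.p6) for 7 members.

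The text names all 10 members, a part of the other pathway genes, and the 3 genes most like each ligand. Pathway genes that are not named may still have been called. Members and lists were chosen with earlier results of these data known. The ligand shares, and their alternatives, were added after the data were seen. 1 gene of the original target list was left out of every list, count and plot and is not reported here.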

Additional observations from a re-analysis of the deposited data

Results flagged for a closer look

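Among 66 groups of 4 libraries examined for a library standing apart (Dixon's test at 95%, for the CPM of the 10 members and the Tgfb3 share), 6 had one, and chance gives about 1 in 20. Tgfbr1 in acute 7 d replicate 4 was 12.1 CPM, against 82.0 to 86.3 in the other 3 libraries. Tgfbr1 in chronic 72 h replicate 3 was 128 CPM, against 48.5 to 61.0. In acute 7 d replicate 2 both Tgfbr2 (403 CPM, against 286 to 301) and Ltbp1 (217 CPM, against 170 to 176) stood above their group. The Tgfb3 share of ligand RNA was 36.9% in healthy replicate 4, against 22.7% to 23.8%, and 36.9% in acute 72 h replicate 1, against 49.2% to 51.3%. Healthy replicate 4 also had the most hepatocyte marker RNA of its group (2892 CPM), and the part of this in its share was not tested.

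The change from 24 h to 72 h differed between the chronic course and 1 injection for 3 members by the interaction test in edgeR. The same test called 10.8% of all genes tested. The differences in log2 change were -5.17 for Ltbp2 (adjusted p = 6.29e-05), -1.53 for Tgfb2 (0.0206) and -0.99 for Tgfbr2 (0.0239). Only the call of Ltbp2 was kept under every alternative. Those of Tgfb2 and Tgfbr2 were lost with no filter and among higher-depth libraries alone. Both were also lost without any one of the single libraries named with the results.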

How the results depend on the processing

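Of the 54 calls of members in the 11 comparisons, 31 were kept under every alternative and 44 without each library in turn, and no call reversed. With a 2-fold minimum the members called fell to 1 in acute 24 h and 4 in chronic 72 h against healthy, 4 in chronic 24 h against acute 24 h, and 0 in chronic 72 h against acute 72 h, where edgeR found 6 at an unadjusted p below 0.05 and DESeq2 called 4. The last comparison gave 5 with depth class as a term and 4 without acute 72 h replicate 3. Among lower-depth libraries chronic 14 d against chronic 24 h gave 2. The 24 h to 72 h difference gave 1 with no filter, 1 among higher-depth libraries, and 1 without acute 24 h replicate 2, acute 72 h replicate 3 or 4, chronic 24 h replicate 4 or chronic 72 h replicate 2. With each library left out, the count against healthy was 3 to 5 in acute 24 h (3 without acute 24 h replicate 2), 4 in acute 72 h, 5 to 7 in acute 7 d, 6 in chronic 24 h, 6 to 7 in chronic 72 h and 3 to 5 in chronic 14 d. It was 6 to 7 in chronic 24 h against acute 24 h, 2 to 4 in chronic 72 h against acute 72 h, 4 to 5 in chronic 14 d against chronic 24 h, 5 to 6 in acute 7 d against acute 24 h and 1 to 3 for the 24 h to 72 h difference. Beside the 2-fold minimum, left-out libraries and losses given with the results, calls ended (edgeR adjusted p) with no filter for Tgfbr2 in acute 24 h against healthy (0.0606) and for the 24 h to 72 h difference of Tgfb2 (0.0538) and Tgfbr2 (0.0797), with only the groups compared for Tgfbr2 in acute 24 h (0.0572), Ltbp3 in acute 7 d (0.0510), Tgfb1 in chronic 72 h (0.0608) and Skil in chronic 14 d against chronic 24 h (0.116), with library size alone for Tgfbr3 in acute 7 d (0.0605), among higher-depth libraries for Tgfbr3 in chronic 72 h (0.0501) and the 24 h to 72 h difference of Tgfb2 (0.0558) and Tgfbr2 (0.159), and with depth class as a term for Ltbp1 in chronic 14 d (0.201). The cause was not tested. In the pairs of groups compared, same-numbered replicates did not deviate together (correlations from -0.114 to 0.151). Chronic 24 h and chronic 72 h were not set against each other in this check. In both of these groups the first pair of replicates was of lower depth. With the replicate number as a block all 54 calls were kept and 1 was gained, Tgfb1 in chronic 14 d against chronic 24 h (-0.65, edgeR adjusted p = 0.0444). Tgfbr1 in acute 24 h against healthy went from 0.22 to -0.61 without acute 24 h replicate 2, uncalled in both.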
